A study of Mus musculus with 72 samples.

Results

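The livers were examined for 35 genes that type I interferon induces. The choice of these genes was made with earlier results of these data known. They were chosen by name and grouped by role: 3 regulators, 3 RNA sensors, 3 IFIT genes, 5 genes of the OAS family, 4 genes of the ISG15 system, 4 genes of a group of ADP-ribosyltransferases and their partner Dtx3l, 7 antiviral effectors and 6 other induced genes. All 35 were found by symbol among the 50307 genes of the count table, all had counts in each of the 72 libraries, and all passed the filter on low counts that left 14954 genes for testing. The mice were of the inbred strains C57BL/6J (B6, spelled C56BL/6J in the strain field of the labels) and DBA/2J (DBA), without engineered alleles named in the labels, and every group ate a Western diet, which is used to induce obesity and fatty liver. Its content of isoleucine, an essential branched-chain amino acid, was control, low or high. The diets lasted 12 weeks and the livers were taken after a fast of 16 h. With females and males of each strain this gives 12 groups of 6 libraries, and a class below is a strain and a sex. The age at the start of the diets is given as 6 weeks in the design text and as 18 weeks in the treatment text. The age field says 18 weeks. No group ate another diet, so the values describe isoleucine content within a Western diet. Whether the libraries are from different mice is not stated, so p-values reflect library-to-library spread, which may be technical in part.

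Type I interferons are secreted proteins that bind a receptor made of IFNAR1 and IFNAR2. The kinases JAK1 and TYK2 then phosphorylate STAT proteins, among them STAT2, and STAT2 works with IRF9 in a complex that binds a short DNA element, the interferon-stimulated response element (ISRE), in the promoters of its targets. The induced proteins sense viral RNA, block its translation, degrade it or modify host proteins, and IRF7 and the sensors in turn raise further interferon production. In the liver hepatocytes, resident macrophages (Kupffer cells) and other cells can respond, and a low level of these transcripts is present without infection.

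Those promoters of the members that carry the response element hold it at different places, and the stretches of some members are printed here. RefSeq promoters of build GRCm38.p6, from 250 bases before to 50 bases after the annotated start, were at hand for 26 of the 35 members and not for Dhx58, Oas2, Usp18, Parp9, Parp14, Mx1, Mx2, Ifi27 and Rtp4. The ISRE was searched as GAAANNGAAA on both strands, which reads TTTCNNTTTC on the other strand. It was found in 12 of the 26 promoters (46.2%) and in 1079 of the 27025 genes with a promoter in the table (3.99%). The related gamma-activated site, searched as TTCNNNGAA, was found in 6 of 26 (23.1%) against 9.55% of all, and in Ifitm3 and Bst2 it overlapped an ISRE match. Each stretch holds the 160 bases before the start, 5′ to 3′ on the gene's own strand, with ISRE matches in capitals. The first 5 genes hold matches and the last 2, the members with positive mean fold changes, hold none. The printed genes do not stand for the rest: of the 12 members with a match 11 were lower on the low diet (median log2 fold change -0.80), and so were 12 of the 14 without one (median -0.80).
Ifit1 (chr19:34640729-34640888, plus strand): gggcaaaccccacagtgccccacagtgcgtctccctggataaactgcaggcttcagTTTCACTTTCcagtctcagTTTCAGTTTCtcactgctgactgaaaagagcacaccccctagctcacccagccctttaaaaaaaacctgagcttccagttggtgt
Ifit3 (chr19:34583369-34583528, plus strand): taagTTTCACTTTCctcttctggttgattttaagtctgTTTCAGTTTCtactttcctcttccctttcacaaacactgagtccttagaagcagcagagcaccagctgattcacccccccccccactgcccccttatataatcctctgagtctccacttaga
Isg15 (chr4:156200819-156200978, minus strand): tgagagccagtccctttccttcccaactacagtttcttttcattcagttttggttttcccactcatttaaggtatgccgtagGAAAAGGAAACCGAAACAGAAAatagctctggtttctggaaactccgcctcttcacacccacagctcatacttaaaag
Oas1a (chr5:120907526-120907685, minus strand): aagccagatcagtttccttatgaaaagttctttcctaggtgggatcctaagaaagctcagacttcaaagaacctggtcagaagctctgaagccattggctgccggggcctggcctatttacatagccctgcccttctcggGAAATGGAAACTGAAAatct
Bst2 (chr8:71537473-71537632, minus strand): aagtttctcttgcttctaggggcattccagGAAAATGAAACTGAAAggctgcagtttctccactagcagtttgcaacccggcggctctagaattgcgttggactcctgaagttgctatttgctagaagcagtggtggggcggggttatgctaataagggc
Trim25 (chr11:88999243-88999402, plus strand): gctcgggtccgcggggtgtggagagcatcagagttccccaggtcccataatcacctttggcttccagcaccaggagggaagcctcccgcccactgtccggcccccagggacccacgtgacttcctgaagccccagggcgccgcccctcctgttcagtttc
Helz2 (chr2:181242028-181242187, minus strand): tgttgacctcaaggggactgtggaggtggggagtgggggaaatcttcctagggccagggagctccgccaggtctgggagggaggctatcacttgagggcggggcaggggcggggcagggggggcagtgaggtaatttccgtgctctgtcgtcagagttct

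Isg15 held 3 overlapping matches, whose first bases lie at -78, -72 and -66 from the start. Ifit1 held its matches at -104 and -85, Ifit3 at -156 and -122, Oas1a at -20 and -14, and Bst2 at -130 and -124. Single matches lay at -75 in Oas3, -120 in Rsad2 and -222 in Stat2. In Ifih1, Ddx58, Eif2ak2 and Ifitm3 the matches lay within the 50 bases after the start. No match was found in this window for Irf7, Irf9, Ifit2, Oasl1, Oasl2, Herc6, Trim25, Dtx3l, Parp12, Cmpk2, Ifi44, Ifi35, Xaf1 and Helz2, which says only that these letters are absent from it.

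**Figure D1:**
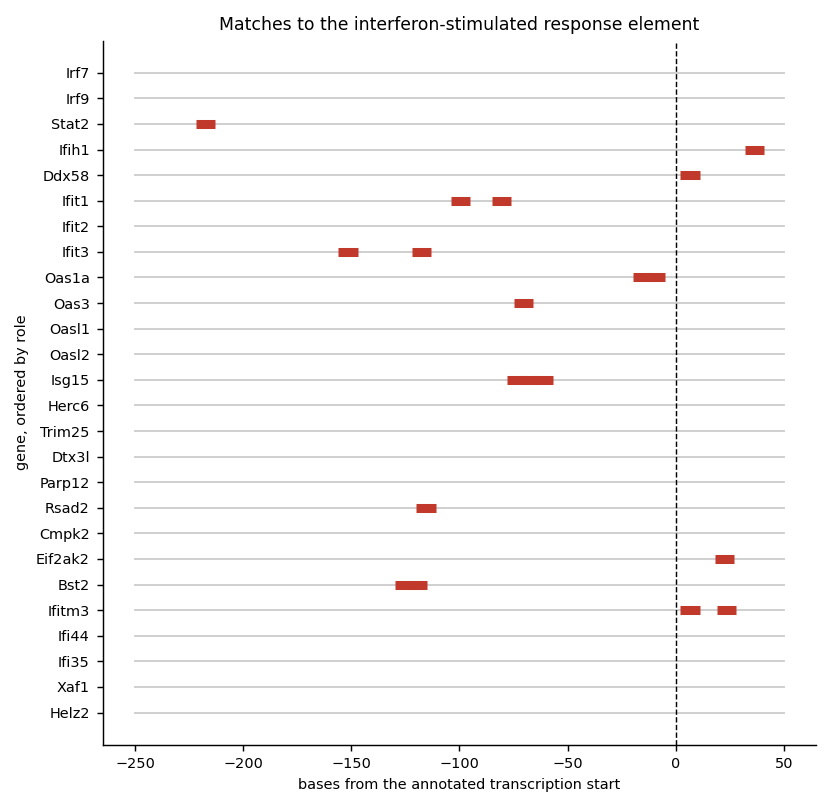
Positions of ISRE matches (red bars, 10 bases each) in the promoters of 26 members. The x axis gives bases from the annotated start (dashed line) and each grey line is the window searched. Matches appear in 12 of the 26 genes, and those that overlap, as in Isg15, merge into a longer bar.

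Library totals ran from 13.0 M to 51.1 M counts (M for 1e6), with a median of 24.1 M. Levels are given as counts per 1e6 of the scaled library size (CPM), and 6 libraries per group limit the precision of every comparison. Per kilobase of annotated exon, the order of levels on the control diet ran from Ifitm3, whose protein blocks viral entry at endosomal membranes, with a median of 314 CPM per kb over 24 libraries, through Bst2 (72.3 CPM per kb), Ifi27 (66.9 CPM per kb) and Ifit3 (20.4 CPM per kb) down to Oas3 at 0.190 CPM per kb. Some members had counts that are not whole, which can arise when reads are divided between genes. This held for 100% of the nonzero values of Oas1a, 98.6% for Ifit3 and 51.4% for Rtp4. It held for 23.6% for Mx1 and for Mx2, 19.4% for Ifit1 and 12.5% for Herc6. The levels of these genes are uncertain by the way reads were divided, and which genes shared the reads was not examined. Parp9 and Dtx3l overlap on opposite strands.

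Low isoleucine was compared with control isoleucine to ask how the content of this amino acid in a Western diet relates to liver transcripts. As the mean of the 4 classes, 32 of the 35 members were lower on the low diet and Trim25 was higher, while 20.0% of all genes tested were lower and 17.8% higher. The members' median log2 fold change was -0.81, against -0.00 over all genes. The IFIT genes had the most negative median of the 8 roles, -1.43, followed by the OAS family and the ISG15 system at -0.95 each. The other induced genes had a median of -0.87, the RNA sensors of -0.74, the antiviral effectors of -0.70, the ADP-ribosyltransferase group of -0.45 and the regulators of -0.44. By class, 30 members were lower in B6 females (11.3% of all genes), 31 in DBA females (6.66%), 30 in DBA males (10.2%) and 3 in B6 males (3.26%), and none was higher. The class medians were -0.85, -1.01, -0.88 and -0.31 on the log2 scale in that order. Every low library lay below every control library for 17 members in B6 females (2.84% of all genes), 27 in DBA females (3.12%), 22 in DBA males (4.53%) and 0 in B6 males (1.36%).

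**Figure D2:**
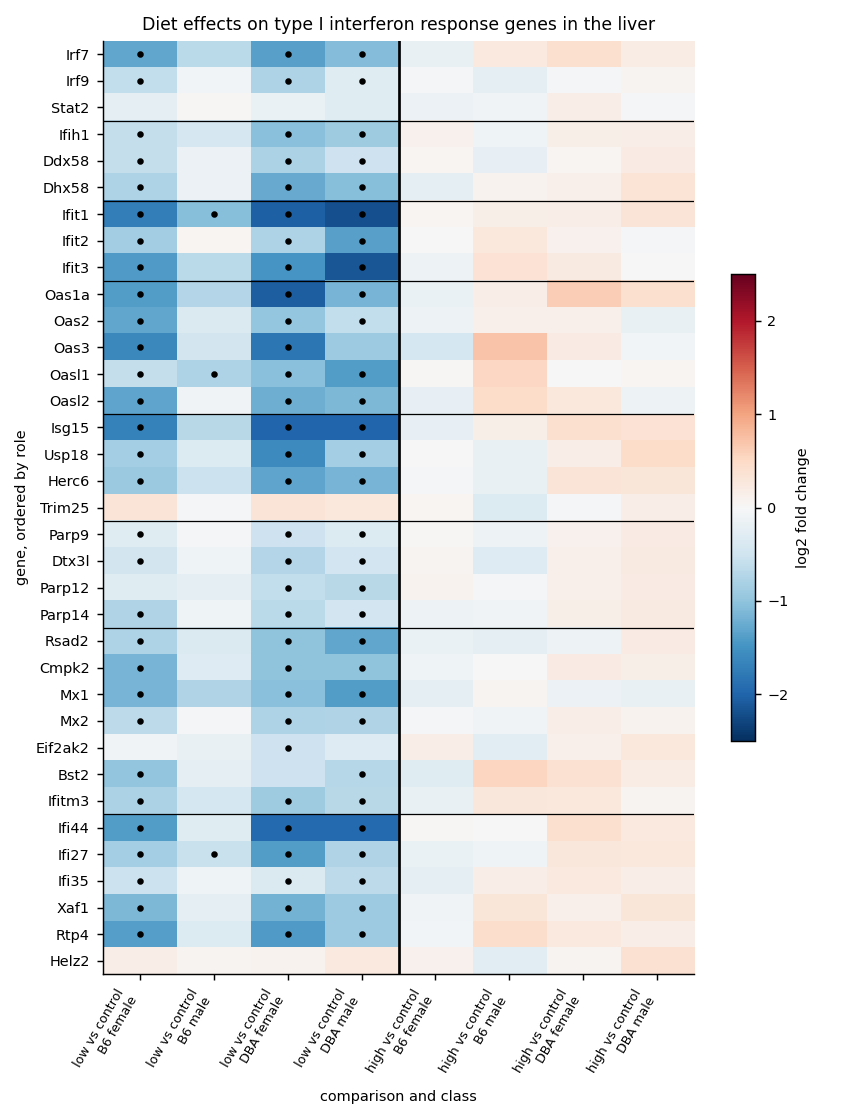
Log2 fold changes of the 35 members (rows, ordered by role, with lines between roles) for low and high isoleucine against control in each class (columns). Black dots mark adjusted p under 0.05. Dots fill the low columns of B6 females (30), DBA females (31) and DBA males (30), 3 stand in that of B6 males, and the high columns hold none.

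Among the regulators, Irf7 encodes the factor that amplifies interferon production. Irf7 ranged from 27 to 84.6 CPM in B6 female control libraries (median 49.3) and from 13.6 to 28.5 CPM on the low diet (median 23.1). It ranged from 53.8 to 87.6 CPM (median 75.6) in DBA female controls and from 22.2 to 35.8 CPM (median 26.4) on the low diet. In DBA males it ranged from 89.7 to 167 CPM (median 132) on the control diet and from 35.9 to 91.9 CPM (median 55.9) on the low diet. In B6 males it ranged from 18.0 to 54.4 CPM (median 45.2) and from 23.0 to 30.7 CPM (median 24.5). The diets were separate for Irf7 in DBA females and overlapped in the other classes, in B6 males because of a control library at 18.0 CPM. The mean log2 fold change of Irf7 was -1.10 (SE 0.13, adjusted p = 3.7e-10), and by class it was -1.30, -0.68, -1.36 and -1.08 in B6 females, B6 males, DBA females and DBA males, with an adjusted p of 0.11 in B6 males.

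Irf9, the DNA-binding partner of STAT2, fell by 0.44 on the log2 scale as the mean of the classes (SE 0.06, adjusted p = 5.4e-09). Its B6 female libraries ranged from 29.0 to 48.0 CPM (median 42.5) on the control and from 21.6 to 32.4 CPM (median 25.7) on the low diet, and its DBA female libraries from 49.0 to 65.5 CPM (median 54.1) and from 28.3 to 38.7 CPM (median 32.5). B6 male libraries spanned 31.9 to 49.4 CPM (median 47.4) and 34.8 to 47.8 CPM (median 42.0), and DBA male libraries 53.4 to 75.1 CPM (median 63.0) and 46.7 to 58.0 CPM (median 50.5). The diets were thus separate for Irf9 in DBA females, overlapping in B6 females and DBA males, and interleaved in B6 males. In B6 males its log2 fold change was -0.07 (SE 0.11, adjusted p = 0.8).

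Stat2, whose protein joins IRF9 in the DNA-binding complex, did not pass the test (log2 fold change -0.17, SE 0.07, adjusted p = 0.053). On the control diet its group medians were 61.5 CPM in B6 females, 64.5 in DBA females, 59.0 in B6 males and 82.0 in DBA males, and on the low diet 53.5, 55.7, 63.0 and 65.3 CPM. Its lowest and highest values over these 8 groups were 40.8 and 126 CPM, and the diets overlapped in every class. Stat2 lay close to the threshold and passed on leaving out any of 18 of the 72 libraries, with values from -0.19 to -0.13 over all 72.

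All 3 RNA sensors were lower. Ifih1 encodes MDA5, which recognises long double-stranded RNA. It ranged from 16.5 to 22.1 CPM (median 18.3) in B6 female controls and from 9.32 to 15.3 CPM (median 12.9) on the low diet. In DBA females the ranges were 15.7 to 25.0 CPM (median 20.0) and 8.54 to 11.2 CPM (median 9.07), and in DBA males 27.2 to 42.6 CPM (median 38.3) and 15.7 to 25.0 CPM (median 19.3). In these 3 classes no low library reached a control library, whereas in B6 males the ranges of 14.3 to 26.9 CPM and 12.9 to 18.6 CPM overlapped. The mean log2 fold change of Ifih1 was -0.74 (SE 0.07, adjusted p = 2.2e-13). Ddx58, which encodes the sensor RIG-I, fell by 0.51 on the log2 scale (SE 0.06, adjusted p = 1.5e-09).

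Dhx58 encodes LGP2, which modulates the other sensors. Its medians on the control and low diets were 12.5 and 6.58 CPM in B6 females, 10 and 9.42 CPM in B6 males, 14 and 5.56 CPM in DBA females, and 30.9 and 15.3 CPM in DBA males. The diets were separate in the DBA classes (12.2 to 17.2 against 4.06 to 9.40 CPM in females, 24.3 to 39.1 against 9.82 to 18.4 CPM in males) and overlapped in B6 females (9.20 to 16.4 against 5.71 to 10.1 CPM) and B6 males (8.12 to 12.5 against 5.95 to 11.6 CPM). Dhx58 fell by 0.81 on the log2 scale as the mean of the classes (SE 0.09, adjusted p = 2.6e-10).

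The IFIT proteins bind viral RNA and block its translation, and Ifit1 had the most negative mean fold change of all members. Ifit1 lies on chromosome 19 from 34640871 to 34650009 on the plus strand of GRCm38. Its libraries ranged from 7.99 to 23.9 CPM (median 13.5) in B6 female controls and from 2.89 to 6.31 CPM (median 4.37) on the low diet. In DBA females they ranged from 20.6 to 39.7 CPM (median 27) and from 3.55 to 9.18 CPM (median 6.93), and in DBA males from 54.5 to 119 CPM (median 85.4) and from 10.3 to 22.9 CPM (median 20.7). No low library reached a control library in these 3 classes. In B6 males the control libraries ranged from 5.58 to 22.8 CPM (median 15.1) and the low libraries from 4.53 to 8.01 CPM (median 7.11), so the lowest control lay among the low libraries. Ifit1 fell by 1.73 (SE 0.29) in B6 females, by 1.07 (SE 0.28, adjusted p = 0.015) in B6 males, by 2.04 (SE 0.28) in DBA females and by 2.20 (SE 0.27) in DBA males, and its mean log2 fold change was -1.76 (SE 0.14, adjusted p = 4.8e-15). Ifit3, whose human counterpart binds and stabilises IFIT1, had a mean log2 fold change of -1.43 (SE 0.13, adjusted p = 2.1e-13) and Ifit2 of -0.73 (SE 0.13, adjusted p = 7.2e-06). The 2 ISRE matches printed for Ifit1 and for Ifit3 lie within 160 bases of their starts, whereas Ifit2 had no match in its window.

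The OAS enzymes make 2′-5′-linked oligoadenylates that activate the antiviral ribonuclease RNase L. The 5 members of the family, Oas1a, Oas2, Oas3 and the OAS-like genes Oasl1 and Oasl2, were all lower as the mean of the classes, with log2 fold changes from -1.34 to -0.81. Oas1a ranged from 3.49 to 6.78 CPM (median 5.56) in B6 female controls and from 1.15 to 2.59 CPM (median 1.98) on the low diet. It ranged from 6.33 to 9.96 CPM (median 7.32) and from 1.12 to 3.13 CPM (median 1.81) in DBA females, and from 7.51 to 17.3 CPM (median 10.1) and from 3.47 to 5.91 CPM (median 5.10) in DBA males. The diets were separate in these classes and overlapped in B6 males, at 1.93 to 4.93 CPM (median 2.96) and 1.25 to 2.56 CPM (median 2.15). The mean log2 fold change of Oas1a was -1.34 (SE 0.13, adjusted p = 3.6e-12). Oas3 had an adjusted p of 0.1 in DBA males, where it was the only gene of the family not to pass, with a log2 fold change of -0.91 (SE 0.40).

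Isg15 encodes a ubiquitin-like protein that is attached to other proteins, Herc6 the ligase that does so in mice and Usp18 the protease that removes it, while Trim25 is a ubiquitin ligase that acts on RIG-I. Isg15 (chromosome 4, 156199424 to 156200818, minus strand) ranged from 6.84 to 14.2 CPM (median 8.21) in B6 female controls and from 1.99 to 3.48 CPM (median 3.27) on the low diet. It ranged from 11 to 16.7 CPM (median 12.2) and from 1.07 to 5.74 CPM (median 3.16) in DBA females, and from 33.1 to 126 CPM (median 51.4) and from 9.93 to 19.1 CPM (median 16.0) in DBA males. The diets did not overlap in these classes, and in B6 males they did, at 4.96 to 10.4 CPM (median 6.82) and 2.81 to 6.55 CPM (median 4.51). Isg15 had a mean log2 fold change of -1.58 (SE 0.16, adjusted p = 1.3e-11), Herc6 of -0.98 (SE 0.10) and Usp18 of -0.91 (SE 0.10).

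Trim25 was the only member to pass in the other direction, by 0.22 on the log2 scale (SE 0.07, adjusted p = 0.0076). Its medians on the control and low diets were 82.6 and 113 CPM in B6 females, 101 and 102 CPM in B6 males, 66.3 and 85.8 CPM in DBA females, and 66.7 and 89.9 CPM in DBA males. The diets overlapped in all 4 classes, and Trim25 passed in none of them in the joint fit. It passed in DBA females with that class fitted alone, and in B6 females and DBA females with sample quality weights. Its promoter stretch printed above, like that of Helz2, holds no ISRE match.

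Parp12 and Parp14 encode enzymes that attach ADP-ribose to proteins. Parp9 encodes a protein of the same family, and Dtx3l a ubiquitin ligase that works with PARP9. All 4 genes were lower, with mean log2 fold changes from -0.50 to -0.30. Parp14 ranged from 25.3 to 52.5 CPM (median 36.2) in B6 female controls and from 18.3 to 24.7 CPM (median 21.7) on the low diet, from 36.6 to 51.0 CPM (median 40.9) and from 21.3 to 31.7 CPM (median 25.7) in DBA females, and from 40.6 to 54.7 CPM (median 50.3) and from 31 to 40.2 CPM (median 34.1) in DBA males. These 3 pairs of groups did not overlap, although the gap between 40.6 and 40.2 CPM in DBA males was small. In B6 males Parp14 ranged from 21.2 to 37.1 CPM (median 32.2) and from 22.9 to 36.1 CPM (median 27.4), and its log2 fold change there was -0.11 (SE 0.15, adjusted p = 0.76). Its mean log2 fold change was -0.50 (SE 0.08, adjusted p = 1.9e-07).

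The antiviral effectors act on different steps of viral growth. Rsad2 (viperin) makes a chain-terminating nucleotide and its neighbour Cmpk2 a nucleotide kinase, Mx1 and Mx2 are dynamin-like GTPases, Eif2ak2 (PKR) stops translation, Bst2 (tetherin) holds virus particles at the cell surface, and Ifitm3 acts at entry. All 7 were lower, from -1.09 (SE 0.14) for Mx1 to -0.28 (SE 0.06) for Eif2ak2 on the log2 scale. Ifitm3, the most abundant member per kilobase, ranged from 139 to 294 CPM (median 194) in B6 female controls and from 96.0 to 131 CPM (median 114) on the low diet. It ranged from 209 to 276 CPM (median 218) and from 96.5 to 144 CPM (median 128) in DBA females, from 303 to 517 CPM (median 360) and from 175 to 259 CPM (median 243) in DBA males, and from 142 to 216 CPM (median 165) and from 99.0 to 142 CPM (median 133) in B6 males. The diets did not overlap except in B6 males, where the highest low library came to the level of the lowest control. Ifitm3 had a mean log2 fold change of -0.70 (SE 0.08, adjusted p = 3.2e-11). Bst2 fell in B6 females and DBA males and had an adjusted p of 0.088 in DBA females.

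Among the other induced genes, Ifi44 and Ifi27 encode proteins whose action is less well known, Ifi35 an adaptor protein, Xaf1 a binding partner of the apoptosis inhibitor XIAP, Rtp4 a chaperone of receptor transport with antiviral activity, and Helz2 a helicase that acts as a nuclear receptor coactivator. Ifi44 ranged from 2.52 to 6.59 CPM (median 4.34) in B6 female controls and from 0.791 to 2.48 CPM (median 1.76) on the low diet, from 6.92 to 13.2 CPM (median 10.6) and from 1.34 to 3.87 CPM (median 2.70) in DBA females, and from 11.2 to 24.8 CPM (median 20.0) and from 2.81 to 5.68 CPM (median 5.33) in DBA males. Control and low libraries were separate there and overlapped in B6 males, at 2.15 to 3.76 CPM (median 2.72) and 1.77 to 2.67 CPM (median 2.29). The mean log2 fold change of Ifi44 was -1.40 (SE 0.14, adjusted p = 6.3e-12).

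Ifi27 was lower in all 4 classes. It ranged from 54.2 to 66.4 CPM (median 60.2) in B6 female controls against 24.6 to 40.6 CPM (median 32.7) on the low diet, from 121 to 154 CPM (median 149) against 37.3 to 75.4 CPM (median 52.4) in DBA females, from 145 to 275 CPM (median 203) against 91.4 to 142 CPM (median 126) in DBA males, and from 48.6 to 75.5 CPM (median 58.3) against 29.1 to 49.5 CPM (median 40.7) in B6 males. Only the last pair overlapped. Its mean log2 fold change was -0.89 (SE 0.09, adjusted p = 1.1e-12).

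Xaf1 had medians of 6.31 and 3.07 CPM on the control and low diets in B6 females, 27 and 11.3 CPM in DBA females, and 46.9 and 24.2 CPM in DBA males, with no overlap in any of the 3 (4.51 to 11.1 against 2.37 to 4.33, 22.7 to 28.8 against 7.98 to 16.8, and 33.0 to 52.5 against 17.0 to 26.1 CPM). In B6 males its medians were 4.54 and 4.10 CPM and the ranges of 3.38 to 6.38 and 3.07 to 5.07 CPM largely coincided. Rtp4 had medians of 16.0 and 6.71 CPM in B6 females, 11.6 and 9.01 CPM in B6 males, 23.4 and 8.84 CPM in DBA females and 40.6 and 23.0 CPM in DBA males, and its diets were separate in the DBA classes alone (20.5 to 30.2 against 6.22 to 12.3 CPM in females, 36 to 53.4 against 15.5 to 26.4 CPM in males). The mean log2 fold changes were -0.86 (SE 0.10) for Xaf1 and -1.01 (SE 0.11) for Rtp4.

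Helz2 (chromosome 2, 181227615 to 181242027, minus strand) did not pass (log2 fold change 0.14, SE 0.07, adjusted p = 0.089). Its control and low medians were 123 and 142 CPM in B6 females, 164 and 159 CPM in B6 males, 129 and 139 CPM in DBA females, and 125 and 142 CPM in DBA males. Its values ran from 97.7 to 212 CPM over these 8 groups and the diets overlapped in every class.

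**Figure D3:**
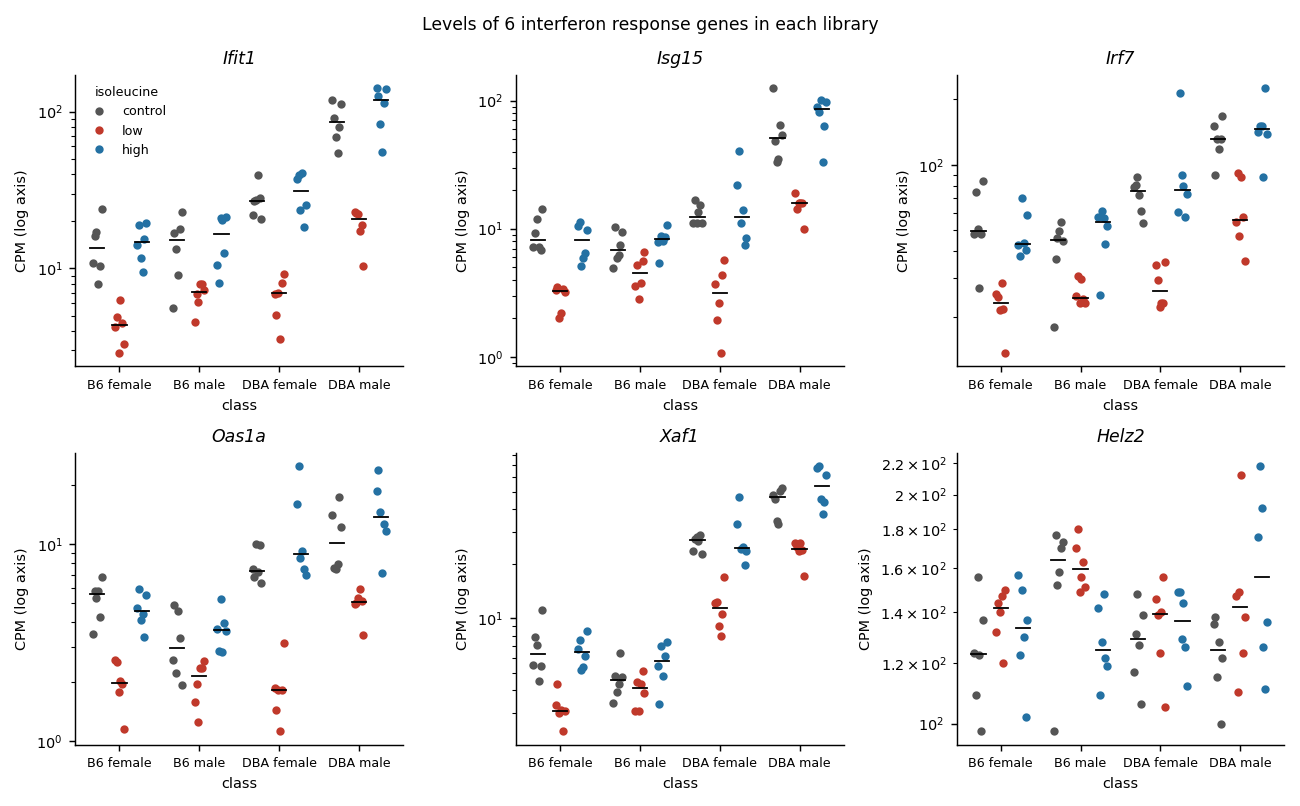
CPM of 6 members in each library (points, log axis), by class (x axis) and diet (colour), with the group median as a black line. The low libraries lie below all control libraries for Ifit1, Isg15, Oas1a and Xaf1 in B6 females, DBA females and DBA males, Irf7 is separate in DBA females, and Helz2 shows the diets mixed.

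In B6 males 32 of the 35 log2 fold changes were negative and 3 passed: Ifit1, Oasl1 (-0.78, SE 0.21, adjusted p = 0.021) and Ifi27 (-0.56, SE 0.17, adjusted p = 0.039). For Oasl1 the control libraries ranged from 4.92 to 23.8 CPM (median 14.7) and the low libraries from 6.94 to 10.6 CPM (median 8.45). Its lowest control library lay below every low library. The count was 0 with the title number (a number in the library titles that 2 libraries of a group share) as a block, 0 with the 18 libraries of the class fitted alone and 7 with sample quality weights. It was 0 without B6 male control replicate 6, 1 without B6 male low replicate 1 and 5 without B6 male control replicate 1, the library that was lowest of its group for 23 members.

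Differences of the low isoleucine effect between classes were tested as interaction terms, and few passed. Between strains, Ifi44 (DBA minus B6 -1.10, SE 0.28, adjusted p = 0.028) and Dhx58 (-0.71, SE 0.19, adjusted p = 0.034) had more negative effects in DBA, and 0.675% of all genes passed in that direction. The interaction was negative for 32 of the 35 members, with a median of -0.33. With the title number as a block neither passed. Between sexes, Irf9 (male minus female 0.50, SE 0.11, adjusted p = 0.0039), Rtp4 (0.76, SE 0.21, adjusted p = 0.017) and Xaf1 (0.59, SE 0.19, adjusted p = 0.049) had less negative effects in males, and 3.03% of all genes passed in that direction. With the title number as a block 1 of the 3, Irf9, passed. A contrast of B6 males with the mean of the other classes, chosen with the class results known, was positive for 33 members, and it passed for Irf9 (0.49, SE 0.13), Dhx58 (0.88, SE 0.22), Oasl2 (1.12, SE 0.25), Ifi44 (1.45, SE 0.33) and Xaf1 (0.85, SE 0.23), against 0.421% of all genes. No member passed it with the title number as a block. These counts of 2, 3 and 5 changed by over 1.5 times on leaving out any of 14, 17 and 19 of the 72 libraries, with values from 0 to 3, 2 to 8 and 2 to 7.

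Against control isoleucine, high isoleucine gave no call among the members. Of the 35 members 0 passed in the mean of the classes, where 0% of all genes did, and 0 passed in any class, including B6 males, where 4.51% of all genes did. At an unadjusted p under 0.05 there was 1 member in the mean of the classes (Oas1a, 0.25, SE 0.13), beside 4.57% of all genes. By class there were 8 of 35 in B6 males, beside 21.6% of all genes, 3 in DBA males (8.43%), 2 in DBA females (2.39%) and 0 in B6 females (5.66%). The members' median log2 fold changes were 0.18 in DBA males, 0.16 in DBA females, -0.08 in B6 females and 0.00 in B6 males.

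The groups were separate for 2 members, both in B6 males, where 1.30% of all genes were separate in either direction. The number was 0 in B6 females (0.455% of all genes), DBA females (0.0669%) and DBA males (0.308%). Bst2 ranged from 47.2 to 65.4 CPM (median 56.2) on the control and from 75.2 to 89.3 CPM (median 83.1) on the high diet, so every high library lay above every control library (log2 fold change 0.53, SE 0.20, adjusted p = 0.11). Trim25 ranged from 94.9 to 117 CPM (median 101) and from 72.3 to 93.1 CPM (median 78.2), with every high library below every control library (-0.35, SE 0.14, adjusted p = 0.12). Bst2 passed with the B6 male libraries fitted alone, and 1 member passed in the joint fit without B6 male control replicate 1 or without B6 male control replicate 6.

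For the 15 members described in every group, the high and control ranges overlapped in every class. On the high diet the regulator Irf7 lay at 38.0 to 70.2 CPM (median 43.2) in B6 females, 57.3 to 213 CPM (median 76.2) in DBA females, 25.2 to 61.1 CPM (median 54.5) in B6 males and 87.4 to 226 CPM (median 146) in DBA males. For Irf9 the values were 33.0 to 46.7 CPM (median 39.7) in B6 females, 44.2 to 62.6 CPM (median 54.5) in DBA females, 28.4 to 43.4 CPM (median 38.8) in B6 males and 56.4 to 78.5 CPM (median 66.2) in DBA males. Stat2 libraries spanned 48.7 to 63.7 CPM (median 57.2) in B6 females, 55.8 to 94.0 CPM (median 71.1) in DBA females, 42.9 to 85.6 CPM (median 53.5) in B6 males and 62.7 to 127 CPM (median 76.7) in DBA males. DBA female high library 2 was alone at the top of its group for Irf7. Of the sensors, Ifih1 covered 19.2 to 23.9 CPM (median 19.6) in B6 females, 15.7 to 26.1 CPM (median 22.0) in DBA females, 15.6 to 21.8 CPM (median 20.1) in B6 males and 26 to 48.2 CPM (median 45.3) in DBA males. Dhx58 was at 8.18 to 12.2 CPM (median 11.5) in B6 females, 11 to 20.2 CPM (median 15.9) in DBA females, 5.51 to 14.3 CPM (median 11.4) in B6 males and 24.7 to 49.8 CPM (median 39.6) in DBA males. Both sensors had their highest median in DBA males.

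Ifit1 ranged on the high diet from 9.56 to 19.4 CPM (median 14.7) in B6 females, 18.3 to 40.7 CPM (median 31.3) in DBA females, 8.13 to 21.3 CPM (median 16.6) in B6 males and 55.6 to 142 CPM (median 120) in DBA males. Oas1a had values of 3.38 to 5.88 CPM (median 4.57) in B6 females, 6.97 to 24.9 CPM (median 8.86) in DBA females, 2.83 to 5.27 CPM (median 3.68) in B6 males and 7.15 to 23.7 CPM (median 13.7) in DBA males, and Isg15 of 5.07 to 11.2 CPM (median 8.17) in B6 females, 7.46 to 40.5 CPM (median 12.5) in DBA females, 5.38 to 10.6 CPM (median 8.36) in B6 males and 32.9 to 102 CPM (median 85.4) in DBA males. All 3 genes had higher medians in DBA males than in the other classes. Parp14 extended over 29.0 to 38.7 CPM (median 32.2) in B6 females, 35.3 to 65.0 CPM (median 43.2) in DBA females, 22.4 to 40.1 CPM (median 27.4) in B6 males and 40.7 to 79.7 CPM (median 50.9) in DBA males. Ifitm3 gave 155 to 214 CPM (median 173) in B6 females, 191 to 491 CPM (median 233) in DBA females, 175 to 260 CPM (median 209) in B6 males and 329 to 533 CPM (median 389) in DBA males. In B6 males the Ifitm3 median was 209 CPM on the high, 165 CPM on the control and 133 CPM on the low diet.

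Of the other induced genes, Ifi44 reached 2.71 to 5.92 CPM (median 4.75) in B6 females, 7.17 to 26.6 CPM (median 12.4) in DBA females, 1.25 to 4.53 CPM (median 2.62) in B6 males and 11.4 to 28.5 CPM (median 26.1) in DBA males. Levels of Ifi27 were 40.9 to 63.5 CPM (median 53.7) in B6 females, 112 to 299 CPM (median 147) in DBA females, 42.8 to 81.9 CPM (median 54.4) in B6 males and 207 to 294 CPM (median 243) in DBA males. Both were higher in each DBA class than in the B6 class of the same sex by median. Xaf1 libraries covered 5.15 to 8.46 CPM (median 6.46) in B6 females, 19.6 to 46.6 CPM (median 24.4) in DBA females, 3.34 to 7.41 CPM (median 5.79) in B6 males and 37.4 to 69.1 CPM (median 53.6) in DBA males. Those of Rtp4 covered 13.5 to 24.5 CPM (median 15.0) in B6 females, 16.8 to 51.1 CPM (median 25.8) in DBA females, 12.8 to 21.6 CPM (median 16.0) in B6 males and 36.4 to 54.7 CPM (median 49.2) in DBA males. Helz2, which did not pass on the low diet either, showed 102 to 157 CPM (median 134) in B6 females, 112 to 149 CPM (median 136) in DBA females, 109 to 148 CPM (median 125) in B6 males and 111 to 218 CPM (median 156) in DBA males. The class medians of Helz2 ran from 125 to 156 CPM.

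High against low isoleucine uses the same low libraries as the comparison with control, so its values repeat part of that comparison. In the mean of the classes 32 members were higher on the high diet (22.9% of all genes were) and Trim25 was lower (-0.27, SE 0.07, adjusted p = 0.00094). The lowest adjusted p belonged to Ifit1 (1.93, SE 0.14), Ifih1 (0.82, SE 0.07) and Oas1a (1.59, SE 0.13). By class 32 were higher in DBA females (8.75% of all genes), 30 in DBA males (8.02%), 30 in B6 females (10.3%) and 13 in B6 males (14.2%). In B6 males Oasl1 (1.29, SE 0.21, adjusted p = 7e-06), Ifitm3 (0.71, SE 0.15, adjusted p = 0.00035) and Ifit1 (1.20, SE 0.28, adjusted p = 0.00094) led, and Helz2 was lower (-0.33, SE 0.13, adjusted p = 0.049). Those 14 calls in B6 males became 7 with the title number as a block, 9 without the low-count filter, 9 without B6 male low replicate 1 and 9 without B6 male high replicate 6.

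DBA livers were compared with B6 livers on the control diet. Of the 35 members 29 were higher in DBA (22.9% of all genes), and Trim25 (-0.44, SE 0.10), Parp9 (-0.47, SE 0.08) and Dtx3l (-0.24, SE 0.10) were lower. Xaf1 had the lowest adjusted p (log2 fold change 2.58, SE 0.14, adjusted p = 1e-25), followed by Mx2 (2.04, SE 0.14, adjusted p = 3.8e-21) and Ifi44 (1.97, SE 0.19, adjusted p = 1.5e-13). Xaf1 ranged from 3.38 to 11.1 CPM over the B6 control libraries and from 22.7 to 52.5 CPM over the DBA control libraries. On the low diet its DBA libraries, at 7.98 to 26.1 CPM, also lay above those of B6, at 2.37 to 5.07 CPM. The strains did not overlap for this gene on either diet.

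The strain difference was larger in males for most members. In females 12 members were higher in DBA (15.8% of all genes) and Parp9 and Bst2 were lower, and in males 31 were higher (20.9% of all genes) and 3 lower. The difference between the sexes passed for 22 members, all with a higher value in males, against 7.92% of all genes. Isg15 (males minus females 2.56, SE 0.44, adjusted p = 5.9e-05), Bst2 (1.78, SE 0.29, adjusted p = 2.2e-05) and Ifi35 (1.04, SE 0.18, adjusted p = 4.5e-05) led. For Isg15 the log2 fold change of DBA over B6 was 0.47 (SE 0.31, adjusted p = 0.26) in females and 3.02 (SE 0.33, adjusted p = 1.1e-11) in males. Bst2 differed in sign, at -0.90 (SE 0.20, adjusted p = 0.0003) in females and 0.87 (SE 0.20, adjusted p = 0.00036) in males. Its control libraries ranged from 51.3 to 131 CPM (median 94.4) in B6 females, from 39.7 to 57.9 CPM (median 51.0) in DBA females, from 47.2 to 65.4 CPM (median 56.2) in B6 males and from 77.5 to 149 CPM (median 99.0) in DBA males. The strains thus overlapped in females and were separate in males. The split by sex was chosen with earlier results of these data known.

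**Figure D4:**
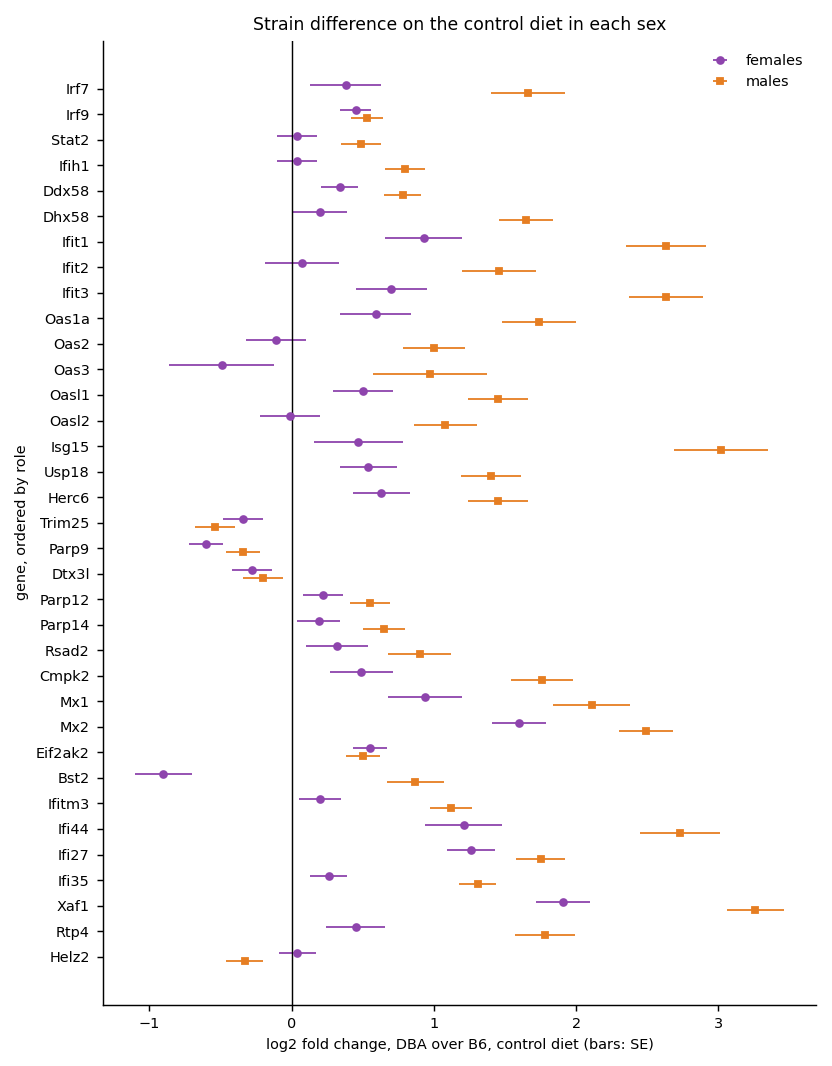
Log2 fold change of DBA over B6 on the control diet (x axis, bars are SE) for each member in females (circles) and males (squares). Isg15 stands at 0.47 in females and 3.02 in males, and Bst2 lies on opposite sides of 0.

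Males were compared with females on the control diet as the mean over the strains. Of the 35 members 11 were higher in males (13.3% of all genes), led by Ifih1 (0.50, SE 0.10, adjusted p = 3.6e-05), Mx2 (0.67, SE 0.13, adjusted p = 7.6e-05) and Ifit1 (0.83, SE 0.19, adjusted p = 0.00062), and Oas3 was lower (-0.79, SE 0.27, adjusted p = 0.024). For Ifit1 the control medians were 13.5 CPM in B6 females and 15.1 CPM in B6 males, and 27 CPM in DBA females and 85.4 CPM in DBA males, so the sexes overlapped in B6 and were separate in DBA.

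The genes upstream and beside the members were counted from lists that were also chosen with earlier results of these data known. Each count in the mean of the classes stands beside 20.0% of all genes lower and 17.8% higher. Of 20 type I and type III interferon genes 17 had no count in any library, which allows up to 3 counts in each (counting error only), or 0.0587 CPM in the deepest and 0.231 CPM in the shallowest library. Ifnb1 had 11 counts in all, spread over 6 libraries, Ifnk 3 and Ifnab 2, and none was tested. Of 12 receptor, kinase and feedback genes 5 were lower on the low diet and 1 higher. Ptpn6, a phosphatase that dampens receptor signals, fell by 0.38 (SE 0.06, adjusted p = 9.6e-08), and the kinase Tyk2 by 0.35 (SE 0.05, adjusted p = 1.8e-07). The receptor chains Ifnar1 (0.01, SE 0.04, adjusted p = 0.86) and Ifnar2 (-0.11, SE 0.06, adjusted p = 0.13) and the kinase Jak1 (0.01, SE 0.05, adjusted p = 0.85) did not pass.

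Of 20 genes of nucleic acid sensing that were tested 8 were lower and 0 higher. They included Samhd1, a nucleotide hydrolase that limits viral DNA synthesis (-0.52, SE 0.08, adjusted p = 2.2e-07), and Unc93b1, which carries endosomal Toll-like receptors (-0.50, SE 0.08, adjusted p = 1.8e-06). Of 46 other interferon-stimulated genes 37 were lower and 1 higher, with a median of -0.59. Apol9a (-1.35, SE 0.10, adjusted p = 4.8e-17) and Ube2l6, the conjugating enzyme of ISG15 (-1.16, SE 0.09, adjusted p = 3.9e-15), had the lowest adjusted p. By class 33, 7, 28 and 27 of the 46 were lower in B6 females, B6 males, DBA females and DBA males, and 1 was higher, in DBA males. Of 6 tested genes that interferon gamma mainly induces 5 were lower, such as the chemokine Cxcl10 (-1.46, SE 0.18, adjusted p = 1.3e-09) and the factor Irf1 (-0.60, SE 0.09, adjusted p = 2.5e-07). Of the receptor of interferon gamma, Ifngr2 was lower (-0.39, SE 0.07, adjusted p = 2.7e-05) and Ifngr1 did not pass (-0.03, SE 0.06, adjusted p = 0.76).

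Markers of other liver cells were read beside the members, since in bulk tissue fewer cells of a type and less RNA per cell cannot be told apart. Their counts are to be read against the same shares of all genes: 20.0% lower and 17.8% higher in the mean of the classes, and 11.3%, 3.26%, 6.66% and 10.2% lower in B6 females, B6 males, DBA females and DBA males. Of 10 listed hepatocyte markers 9 were found and all 9 passed the low-count filter, and none of the 13 Kupffer cell or 12 infiltrating macrophage markers was at 0 throughout. Of the Kupffer cell markers 10 were lower on the low diet and 1 higher in the mean of the classes, 7 lower in B6 females, 5 in B6 males and 0 in either sex of DBA. Cd68, a lysosomal protein of macrophages, fell by 0.62 (SE 0.14, adjusted p = 0.00041) and Clec4f, a lectin of Kupffer cells, by 0.39 (SE 0.09, adjusted p = 0.0005) in the mean of the classes. Of the infiltrating macrophage markers 8 were lower in the mean, 11 in B6 females and 2 in B6 males, and in DBA females 0 were lower, while in DBA males 0 were lower and 1 was higher. Ms4a7 (-1.27, SE 0.26, adjusted p = 8.4e-05) and Lyz2 (-0.66, SE 0.15, adjusted p = 0.00024) had the lowest adjusted p of that list.

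Summed over its markers, the Kupffer cell level in DBA females ranged from 233 to 444 CPM on the control diet and from 244 to 387 CPM on the low diet, and in DBA males from 157 to 337 CPM and from 207 to 287 CPM. In B6 females it ranged from 383 to 1064 CPM and from 320 to 488 CPM, and in B6 males from 260 to 472 CPM and from 111 to 264 CPM. The summed infiltrating macrophage markers ranged from 60.2 to 98.8 CPM and from 58.4 to 104 CPM in DBA females, from 43.2 to 76.6 CPM and from 64.6 to 110 CPM in DBA males, from 129 to 233 CPM and from 71.6 to 116 CPM in B6 females, and from 94.7 to 177 CPM and from 75.3 to 105 CPM in B6 males. The macrophage sums of the diets overlapped in the DBA classes, where 31 and 30 members were lower. In DBA males the infiltrating macrophage median was 68.6 CPM on the control and 80.2 CPM on the low diet. The sums of infiltrating macrophages were separate in B6 females, where 30 members were lower, and the other macrophage sums in B6 overlapped. In B6 males the Kupffer cell median was 326 CPM on the control and 188 CPM on the low diet, beside 3 members called. The part of macrophage markers in the members' results was not tested in any class.

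Of the other lists, 7 of 10 markers of sinusoidal endothelium and 4 of 9 of hepatocytes were higher on the low diet, with medians of 0.31 and 0.12 on the log2 scale. Bmp2 (0.57, SE 0.08) and Kdr (0.52, SE 0.09) led the first and Cps1 (0.54, SE 0.11) and Hnf4a (0.22, SE 0.06) the second. Of 13 markers of T, B and NK cells 2 were lower, Cd4 (-0.91, SE 0.18) and Ighm (-0.57, SE 0.21), a share below that of all genes. Of 9 stellate cell markers 3 were lower, among them Col3a1 (-0.65, SE 0.13) and Col1a1 (-0.82, SE 0.17), and of 3 neutrophil markers 0 passed. Plasmacytoid dendritic cells, a main source of interferon in infection, were represented by 3 of 8 markers with enough counts, of which Ly6d was lower (-1.24, SE 0.20, adjusted p = 1.5e-06) and Siglech (-0.09, SE 0.20, adjusted p = 0.77) and Tcf4 (-0.12, SE 0.07, adjusted p = 0.15) did not pass. The sum over the list ranged from 22.8 to 54.4 CPM on the control and from 16.7 to 20.9 CPM on the low diet in B6 females, and from 14.6 to 17.8 CPM and from 7.94 to 13.8 CPM in DBA females. In B6 males it ranged from 10.4 to 20.0 CPM and from 9.96 to 12.6 CPM, and in DBA males from 10.3 to 25.0 CPM and from 8.32 to 18.2 CPM. The diets were separate for this sum in both female classes and overlapped in both male classes, and its part in the members' results was not tested. Of single genes tested 2.84% were separate in this direction in B6 females and 3.12% in DBA females, and no such share was computed for sums of genes. The sum also holds the markers with too few counts to be tested. Of the 3 tested markers 1 was lower in B6 females, 1 in B6 males and 0 in either DBA class. Between the strains on the control diet, 10 of the Kupffer cell and 9 of the infiltrating macrophage markers were lower in DBA and none was higher. Of all 14954 genes tested 3359 were lower in DBA and 3428 higher, and 29 members were higher. The part of these markers in the strain difference was not tested.

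**Figure D5:**
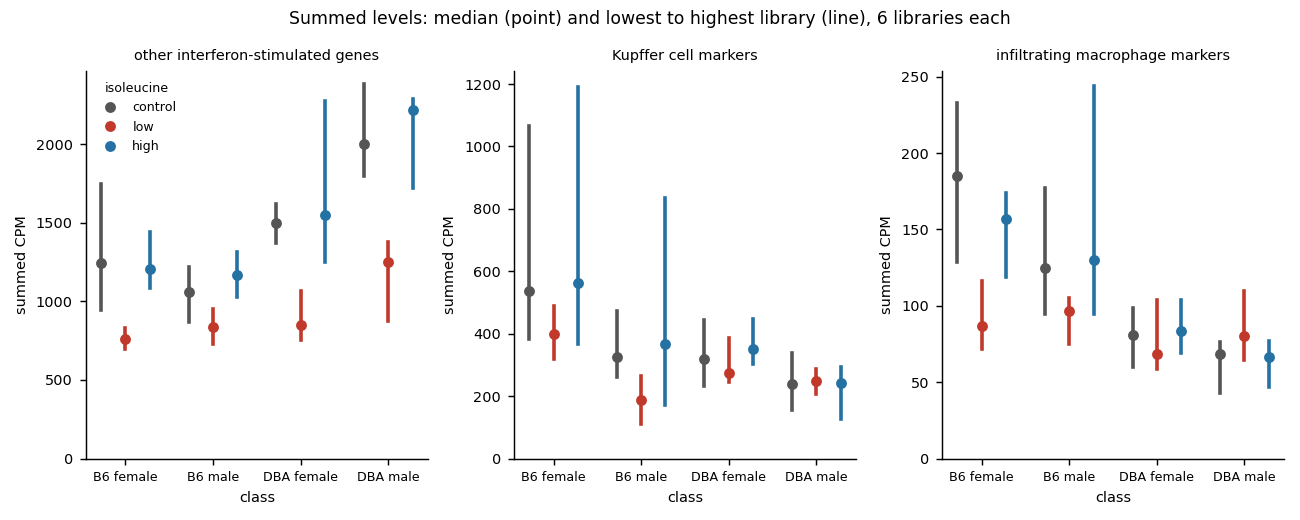
Summed CPM of 3 gene lists by class (x axis) and diet (colour). Points are medians and lines run from the lowest to the highest of 6 libraries. The other interferon-stimulated genes lie lower on the low than on the control diet without overlap in B6 females, DBA females and DBA males. Between these diets the Kupffer cell markers overlap in every class, and the infiltrating macrophage markers in every class but B6 females.

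Single libraries of a group stood high or low for many members together. DBA female high library 2 was the highest of its group for 28 of the 35 members, and B6 female control library 6 for 24. B6 male high library 2 and DBA female high library 5 were each the lowest of their group for 24 members, and B6 male control library 1 and DBA female control library 6 for 23. The labels do not say what the number in the titles marks. The median correlation of libraries with the same number, after the group means, was 0.364 over the members and 0.245 over all genes, which is a description of libraries that share group and number.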

How the data were processed

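Liver RNA of 72 libraries was sequenced, and expected counts per Ensembl gene were deposited by the authors, aligned to GRCm38 per the labels. Such estimated counts can be fractional, as 9.56% of those above 0 were. Aligner and counter: not given in the sources used here. The tools R (3.4.3), limma and edgeR stand in the submitters' processing notes. The labels name a polyA-enriched preparation in one field and a total RNA guide in another. Reads of both strains were aligned to a reference built from C57BL/6J, and what this does to the strain comparisons was not tested. The table listed 50308 genes. Its last line was incomplete and 50307 genes were used, of which 50255 matched a symbol. Comparison tables of the authors were not used here.

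Counts were rounded, filtered with filterByExpr by group, scaled by TMM (factors 0.84 to 1.14) and tested with the quasi-likelihood test of edgeR 4.0.16 in R 4.3.3, in a joint model of the 72 libraries and 12 group means (common biological coefficient of variation 0.21). P-values were adjusted by Benjamini-Hochberg over 14954 genes with a threshold of 0.05. Groups came from the strain, sex and diet labels. A mean of 4 classes weights the classes equally. The fit was tested on simulated data. Alternatives were other size factors, no filter, DESeq2 1.42.0, limma 3.58.1 with quality weights or with the title number as a block, each class alone and each library left out. The members and lists were chosen with earlier results of these data known. Values in every group are given for the member of each role with the lowest adjusted p, for members that did not pass, and for those with the lowest adjusted p in the interactions. Other comparisons name up to 3 members and other lists up to 2 genes. Trim25, Bst2, Oasl1 and further genes outside this rule were named after their values were seen. Counts over lists cover all their tested genes, though not every gene is reported here by name.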

Additional observations from a re-analysis of the deposited data

Results flagged for a closer look

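For the 15 members described in every group, 180 sets of 6 libraries were searched for a library far from the rest, and 15 were found, where chance alone marks about 1 set in 20. The sets come from the same 12 groups of libraries and are not independent, so whether 15 exceeds chance was not tested. DBA female high library 2 was highest by a wide gap for 4 genes: Irf7 (213 CPM), Parp14 (65.0 CPM), Ifi44 (26.6 CPM) and Rtp4 (51.1 CPM). DBA male high library 3 was so for Stat2 (127 CPM) and Ifitm3 (533 CPM), and DBA male control library 1 for Stat2 (126 CPM) and Isg15 (126 CPM). Single high values were Stat2 in B6 male high library 1 (85.6 CPM), Oas1a in DBA female low library 6 (3.13 CPM), Parp14 in DBA female control library 3 (51.0 CPM) and Rtp4 in B6 male low library 4 (13.8 CPM). Single low values were Ifitm3 in B6 male low library 3 (99.0 CPM), Xaf1 in DBA male low library 6 (17.0 CPM) and Helz2 in B6 male control library 1 (97.7 CPM).

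Some effects differed between groups by their interaction term. The low isoleucine effect was more negative in DBA than in B6 for Ifi44 (-1.10 on the log2 scale) and Dhx58 (-0.71), and less negative in males than in females for Irf9 (0.50), Rtp4 (0.76) and Xaf1 (0.59). Against the other classes, B6 males had a less negative effect for Oasl2 (1.12), Ifi44 (1.45) and Dhx58 (0.88). The log2 fold change of DBA over B6 on the control diet was higher in males than in females for Bst2 (1.78), Ifi35 (1.04) and Isg15 (2.56). For Bst2 it was negative in females and positive in males.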

How the results depend on the processing

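Under all alternatives run, the count of members called for low against control isoleucine stayed at 33 or 34 in the mean of the classes. It stayed between 26 and 33 in B6 females, DBA females and DBA males. In B6 males the 3 calls became 7 with quality weights, 0 with the replicate block by title number and 0 with the class fitted alone, and ranged from 0 to 5 on leaving out libraries. For high against control isoleucine in B6 males, 0 calls became 1 (Bst2) with the class alone and ranged from 0 to 1 on leaving out libraries. For high against low isoleucine in B6 males, 14 calls became 9 without the filter and 7 with the block (9 to 15 on leaving out libraries). The strain interaction moved from 2 calls to 0 without the filter, 4 with quality weights and 0 with the block (0 to 3). The sex interaction moved from 3 to 11 with quality weights, 1 with the block and 8 with DESeq2 (2 to 8). The contrast of B6 males with the other classes moved from 5 to 2 without the filter, 12 with quality weights, 0 with the block and 8 with DESeq2 (2 to 7). The cause of these changes was not tested. The pairing by title number changed no other count by over 1.5 times. For low against control isoleucine in the mean of the classes, the fold changes of the 15 members described in every group kept their sign under these alternatives and on leaving out each library, Stat2 passed on leaving out any of 18 libraries, and Helz2 passed with quality weights (0.15, adjusted p = 0.028). Signs of single members in the other comparisons were not compared across alternatives. Within a class each title number occurs in 1 group alone, and numbers recur across classes, so the block was strain, sex and number together and paired no libraries across diets.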
